A study of Mus musculus with 8 samples.

Results

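The 27 genes described here form the mouse set for cholesterol synthesis, its control by sterols, and the movement and storage of cholesterol inside cells. They were chosen by name from known biochemistry, out of 48709 gene identifiers in the count files, and all 27 were among the 12696 genes with enough reads to be tested. By role they comprise 7 genes of the mevalonate pathway, 3 of the squalene and lanosterol steps, 9 of the conversion of lanosterol to cholesterol, 4 of sterol sensing and 4 of trafficking and storage. No surface receptor for lipoprotein uptake is among them, so uptake is represented by Npc1 and Npc2, which handle cholesterol after endocytosis.

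Hematopoietic stem and progenitor cells (HSPCs), sorted as lineage-negative, Sca1+ and cKit+ cells from C57Bl/6J mice, were cultured for 7 days in serum-free medium with 100 ng/ml of the cytokine SCF (stem cell factor) and 2 ng/ml of Flt3L. The 4 control libraries came from that medium alone, and the 4 malonyl-CoA libraries from the same medium with 100 µM malonyl-CoA, the building block of fatty acid synthesis. Each library held RNA of the progeny of 10000 seeded cells, and both groups carried the numbers 1, 3, 4 and 5. The libraries are called biological replicates, with no statement of whether each is an animal, a pool or a culture, so p-values measure the spread between these samples.

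Cells make cholesterol from cytosolic acetyl-CoA, first along the mevalonate pathway to farnesyl diphosphate, then through squalene to lanosterol, and finally by reduction, demethylation and isomerisation to cholesterol. The pathway is controlled as a unit: when sterols are low, SCAP escorts the transcription factor precursor SREBP-2 (encoded by Srebf2) from the endoplasmic reticulum to the Golgi, where proteases release its active part. When sterols are high, the INSIG proteins hold SCAP back, and in blood progenitors cholesterol handling is known to bear on proliferation and on the output of myeloid cells.

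The promoters of these genes are shown first, because letters of the kind bound by SREBP-2 and its partner NF-Y are what such genes are known to share. RefSeq promoter windows (build GRCm38.p6, 250 bases before to 50 after a transcription start) were found for 22 of the 27 members, with 28 windows in all. Fdft1, Fdps, Npc1, Sqle and Stard4 were not matched. The stretches below lie upstream of the start, in no annotated exon, and are written on the gene's own strand. Capitals mark CCAAT, or ATTGG where it lies on the other strand, and the sterol element letters. Hmgcs1 (chr13:119690101-119690350, plus strand) and Acat2 (chr17:12960748-12960975, minus strand) are shown because they alone held the sterol element core that was searched.
Hmgcs1: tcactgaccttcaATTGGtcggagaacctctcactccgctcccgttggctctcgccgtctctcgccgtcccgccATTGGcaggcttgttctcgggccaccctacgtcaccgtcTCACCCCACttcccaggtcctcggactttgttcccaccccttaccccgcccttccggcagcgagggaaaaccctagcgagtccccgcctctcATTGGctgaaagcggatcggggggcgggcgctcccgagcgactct
Acat2: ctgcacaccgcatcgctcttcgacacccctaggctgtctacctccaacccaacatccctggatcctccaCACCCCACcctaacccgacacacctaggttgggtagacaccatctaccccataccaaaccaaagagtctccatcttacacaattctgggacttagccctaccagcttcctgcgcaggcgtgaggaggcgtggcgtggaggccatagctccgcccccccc
Mvd (chr8:122443423-122443672, minus strand), Mvk (chr5:114444061-114444268, plus strand), Insig1 (chr5:28071162-28071362, plus strand) and Srebf2 (chr15:82147019-82147180, plus strand) are examples with full values further on. Pmvk, Lss, Lbr, Scap, Npc2 and Soat1 also have full values further on, and their stretches are not shown. Of these, Scap holds no CCAAT and Pmvk no GGGCGG.
Mvd: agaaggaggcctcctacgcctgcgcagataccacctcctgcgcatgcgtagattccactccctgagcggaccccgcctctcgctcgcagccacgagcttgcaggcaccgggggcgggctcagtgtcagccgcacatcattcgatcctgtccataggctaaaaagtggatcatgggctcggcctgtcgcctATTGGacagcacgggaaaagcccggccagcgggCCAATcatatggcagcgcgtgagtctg
Mvk: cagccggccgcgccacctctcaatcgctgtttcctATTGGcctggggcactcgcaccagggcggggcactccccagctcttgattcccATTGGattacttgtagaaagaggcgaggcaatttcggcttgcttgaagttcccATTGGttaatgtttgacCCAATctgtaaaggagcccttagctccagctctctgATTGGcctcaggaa
Insig1: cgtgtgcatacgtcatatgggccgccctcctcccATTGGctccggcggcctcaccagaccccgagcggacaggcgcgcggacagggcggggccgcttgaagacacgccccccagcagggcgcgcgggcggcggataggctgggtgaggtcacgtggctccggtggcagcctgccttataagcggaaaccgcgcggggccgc
Srebf2: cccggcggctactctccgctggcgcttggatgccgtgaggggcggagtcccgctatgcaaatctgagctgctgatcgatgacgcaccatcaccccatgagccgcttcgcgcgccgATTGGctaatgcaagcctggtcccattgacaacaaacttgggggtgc
Both strands of each full window of 300 bases were searched, so some matches lie outside the printed stretches. CCAAT, the letters of the NF-Y box, was present in 20 of 22 member genes (90.9%), against 41.1% of 27025 genes with a window and 43% of the 9734 of these that were tested. The exceptions were Acat2 and Scap. GGGCGG, the letters of the Sp1 box, was present in 21 of 22 (95.5%), against 38.2% of all genes and 68.1% of tested genes, and the exception was Pmvk. The core CACCCCAC was found in 2 of 22 (9.09%), against 3.3% of all genes and 3.73% of tested genes. The relaxed form TCACNCCAC was found in 1 member (4.55%), against 1.44% and 1.37%, and in Hmgcs1 the match to it overlaps the match to the core. As shares of all 32851 windows, the 4 sets of letters were present in 37.4%, 35.7%, 2.87% and 1.24%, in the order given. These matches describe letters in a fixed window and do not show binding.

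Depth was even across libraries, from 17492085 counts assigned to genes in malonyl-CoA 5 to 22079844 in control 5. After 7 days the cultures still held Kit, the stem cell factor receptor, at 204 to 320.1 CPM. CPM are counts scaled to the depth of the library with TMM, the trimmed mean of M values. Ly6a, which encodes Sca1, was at 24.7 to 109.7 CPM. Control and malonyl-CoA means were 270 and 244 CPM for Kit, 42.2 and 81.3 for Ly6a, and 189 and 186 for Flt3. They were 598 and 454 for Cd34, 9386 and 9165 for Mpo, and 219 and 315 for Csf1r. Cd34 was lower without overlap (2.93% of all genes) and Csf1r higher without overlap (3.21%). Lineage markers were present too, with summed granulocyte markers at 13960 to 21820 CPM in controls and 14000 to 17850 CPM with malonyl-CoA. Of that list Mmp9, Retnlg and Ly6g stayed below 1 CPM in every library, so the sum does not show how mature these cells were. Fold changes were below 0 for 15 of 16 granulocyte markers tested and for 8 of 11 mast cell and basophil markers, and above 0 for 12 of 17 monocyte and macrophage markers, against 53.4% of all genes above 0. By edgeR 0 of these markers passed the adjusted test. At an unadjusted p under 0.05, 6 granulocyte and 5 mast cell markers were lower, against 4.1% of all genes. At the same limit 4 monocyte markers were higher, against 5.43%. Other lists held such genes too: 3 of 8 lymphoid, 2 of 7 erythroid and 2 of 12 stem and progenitor markers were lower. Higher were 2 of 5 stromal and endothelial markers and 1 stem and progenitor marker, and of 10 megakaryocyte markers 0 were either. Monocyte sums were 3976 to 6013 CPM in controls and 4566 to 5429 CPM with malonyl-CoA, and mast cell sums 1011 to 1212 CPM and 845.6 to 974 CPM. Markers near absence were the erythroid genes Slc4a1 and Alas2, the T cell gene Cd3e and the stromal gene Col3a1, all at 0 in every library. In such mixed cultures fewer cells of a type and less RNA per cell cannot be told apart. The part of these markers in the results on cholesterol genes was not tested.

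No cholesterol gene differed between malonyl-CoA and control cultures past the test. The members with the smallest p-values were the regulator gene Srebf2 and the early enzymes Fdps and Mvd, with log2 fold changes (malonyl-CoA minus control) of 0.35, 0.38 and 0.50. Of the 9 genes of the last steps 8 were between -0.14 and 0.032, and Lbr was lowest of all members at -0.28. By edgeR's quasi-likelihood test, adjusted by Benjamini-Hochberg over all tested genes at a threshold of 0.05, 0 of 27 members were called in either direction. The same test called 0% of all genes higher and 0% lower. DESeq2 and limma-voom also called 0 members, while DESeq2 called 64 genes higher and 17 lower over the whole table. At an unadjusted p under 0.05 in edgeR, 3 members were higher, against 5.43% of all genes, and 0 were lower, against 4.1%. In 1 member, Srebf2, all 4 malonyl-CoA libraries lay above all 4 controls, a pattern seen in 3.21% of all genes, and in 0 members did they lie below, against 2.93%. Fold changes above 0 were found for 15 of 27 members, against 53.4% of all genes. Over the members the median of these fold changes was 0.020, and over all genes 0.023.

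**Figure D1:**
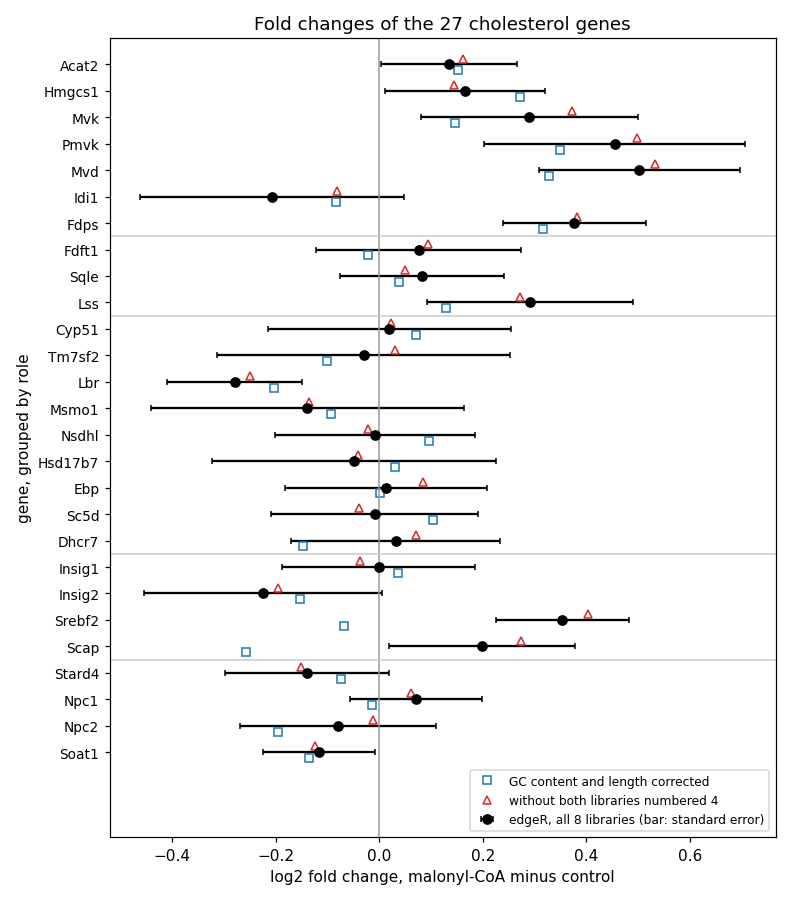
Log2 fold change (malonyl-CoA minus control, x axis) of each of the 27 genes (y axis, grouped by role), with black points and bars for edgeR's estimate and its standard error over all 8 libraries, red triangles for the same without both libraries numbered 4, and blue squares after correction for GC content and transcript length. Estimates ran from -0.28 for Lbr to 0.50 for Mvd, and Srebf2 and Scap were at -0.067 and -0.26 after the correction.

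In the mevalonate pathway 6 of 7 genes had fold changes above 0 and 1 below, and a median of 0.29 on the log2 scale, and none passed the test. Mvd (ENSMUSG00000006517, chr8:122433601-122443422), which decarboxylates mevalonate diphosphate to the first isoprene unit, was at 101, 122, 80.9 and 66.5 CPM in controls 1, 3, 4 and 5, and at 141, 133.5, 103 and 147 CPM in the malonyl-CoA libraries of the same numbers. Malonyl-CoA 4 was the lowest of its group and lay just above control 1 and below control 3, so the groups overlapped. The means were 92.6 ± 24.1 and 131 ± 19.8 CPM (SD, n = 4 each), a log2 fold change of 0.50 (SE 0.19, edgeR adjusted p = 0.502).

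Fdps (ENSMUSG00000059743, chr3:89093588-89101959) joins isoprene units into farnesyl diphosphate, the branch point to sterols and prenylated proteins. Its level was 47.6, 40.8, 37.6 and 31.8 CPM in controls 1, 3, 4 and 5, and 52.9, 52.7, 47.3 and 51.9 CPM with malonyl-CoA. The overlap was limited to malonyl-CoA 4 and control 1, which were almost equal. The means were 39.5 ± 6.61 and 51.2 ± 2.64 CPM, a log2 fold change of 0.38 (SE 0.14, edgeR adjusted p = 0.502). Fdps shares 1124 exonic bases with the gene model Gm43738 on the same strand, so its count is uncertain.

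The kinases of the pathway followed the same layout with a wider spread. Pmvk (ENSMUSG00000027952, chr3:89454541-89469013), which phosphorylates mevalonate phosphate, was at 80.6, 96.5, 53.1 and 50.7 CPM in controls 1, 3, 4 and 5 and at 104, 110.4, 61.3 and 109.5 CPM with malonyl-CoA. Controls 4 and 5 and malonyl-CoA 4 formed a low set, and the other libraries lay clearly above it. This gave a log2 fold change of 0.45 (SE 0.25, edgeR adjusted p = 0.519). Mvk (ENSMUSG00000041939, chr5:114444269-114460591), the kinase that acts first on mevalonate, was at 45.6, 45.3, 37.7 and 24.0 CPM in controls and at 51.7, 46.3, 36.7 and 51.7 CPM with malonyl-CoA. Control 5 stood far below the rest, and the groups otherwise overlapped, with a log2 fold change of 0.29 (SE 0.21, edgeR adjusted p = 0.568).

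Hmgcs1 (ENSMUSG00000093930, chr13:119690379-119708260), the synthase that commits acetyl-CoA units to the pathway, had the highest level per length of its role. It was at 620.3, 699.7, 473.5 and 669 CPM in controls 1, 3, 4 and 5, and at 709, 771, 554 and 729 CPM with malonyl-CoA. Control 4 and malonyl-CoA 4 were the lowest libraries, and the groups overlapped. By edgeR the difference was 0.17 on the log2 scale (SE 0.16, adjusted p = 0.639). Acat2, which condenses acetyl-CoA, ranged from 114.5 to 152 CPM with a log2 fold change of 0.14 (SE 0.13), and Idi1, the isomerase of isoprene units, from 14.1 to 34.6 CPM with -0.21 (SE 0.25), the only one of the role below 0. Both Acat2 and Idi1 have near-identical stretches in other genes (at least 95% identity over 200 bases), so reads from them can be lost or split.

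**Figure D2:**
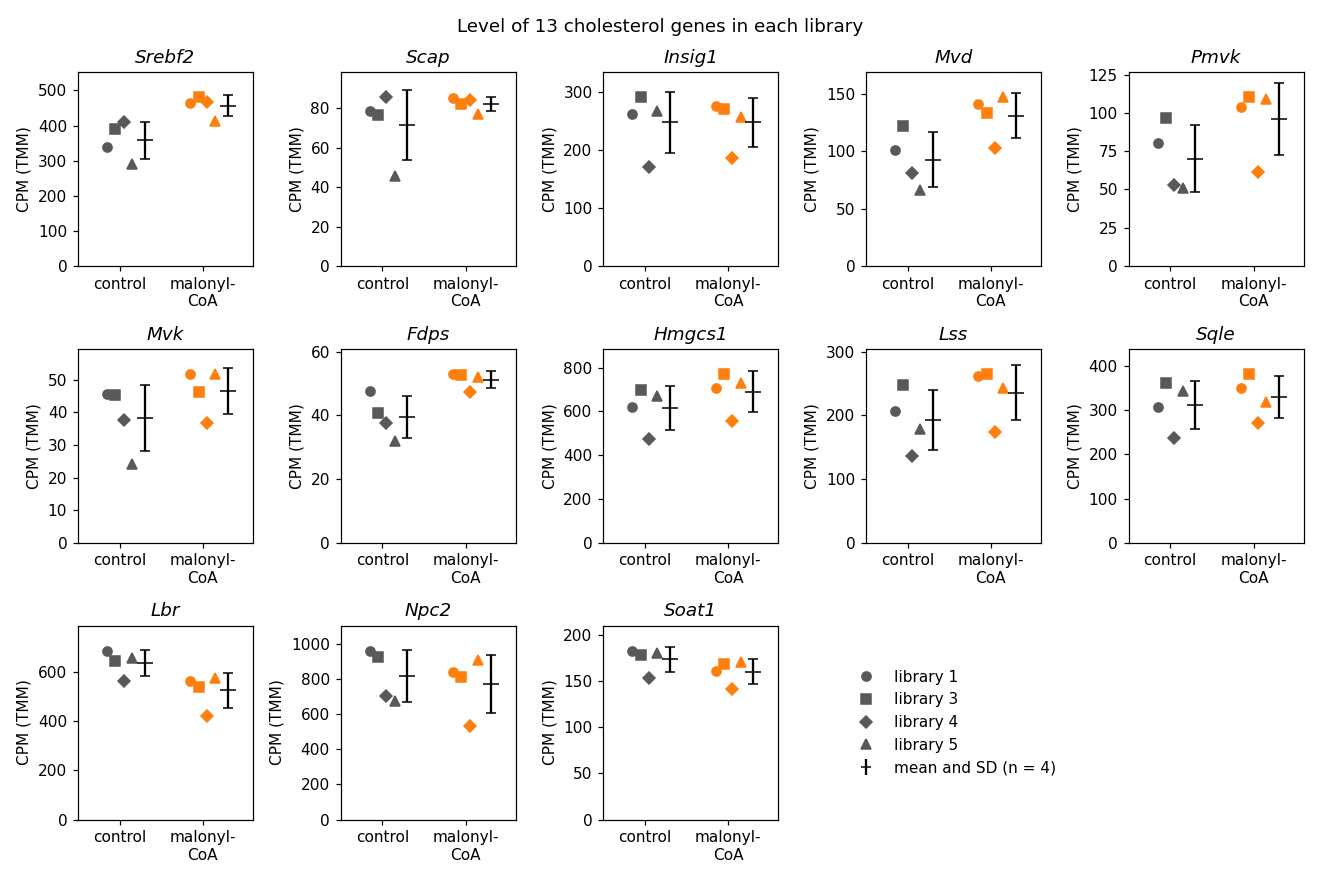
Level in CPM (y axis, from 0) of 13 cholesterol genes in the 4 control (grey) and 4 malonyl-CoA (orange) libraries, with the marker shape giving the library number and the bars the mean and SD of each group (n = 4). Srebf2 is the 1 gene whose groups do not overlap, with malonyl-CoA libraries from 414 to 481 CPM and controls from 291 to 409 CPM.

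The squalene and lanosterol steps lay above 0 in all 3 genes, at a median of 0.082, with no gene past the test. Lss (ENSMUSG00000033105, chr10:76531588-76557138), which closes the sterol rings to give lanosterol, was at 207, 248.5, 136.5 and 179 CPM in controls 1, 3, 4 and 5, and at 262, 265, 173 and 243 CPM with malonyl-CoA. The groups overlapped, and control 3 exceeded malonyl-CoA 4 and 5, with a log2 fold change of 0.29 (SE 0.20, edgeR adjusted p = 0.553). Sqle (ENSMUSG00000022351, chr15:59315077-59331192), the rate-controlling epoxidase of squalene, was at 307, 360.4, 237 and 344 CPM in controls and at 349.7, 382, 271 and 319 CPM with malonyl-CoA. The number 4 library was the lowest of each group, and the groups overlapped broadly, with a log2 fold change of 0.082 (SE 0.16, edgeR adjusted p = 0.825). Fdft1, the squalene synthase, ranged from 141.5 to 240.2 CPM with 0.076 (SE 0.20) as its log2 fold change, and it shares 774 exonic bases with Ctsb on the opposite strand. It also has a near-identical stretch of 1249 bases in the gene model Gm6781.

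Among the 9 genes that turn lanosterol into cholesterol, 3 had fold changes above 0 and 6 below, at a median of -0.0090, with none past the test. Lbr (ENSMUSG00000004880, chr1:181815335-181843046), the lamin B receptor of the inner nuclear membrane, carries a sterol reductase domain and is also known for shaping the nuclei of granulocytes. It was at 685, 645, 561 and 655 CPM in controls 1, 3, 4 and 5, and at 563, 538, 421 and 576 CPM with malonyl-CoA. The groups overlapped only through control 4, which was below malonyl-CoA 1 and 5. The means were 636 ± 53.2 and 524 ± 71.0 CPM, a log2 fold change of -0.28 (SE 0.13, edgeR adjusted p = 0.515). The lower value in Lbr stands beside the 15 of 16 granulocyte markers with fold changes below 0, of which 0 passed the test, and the part of those cells in it was not tested.

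Msmo1, the C4 methyl oxidase, varied most of all members, from 222 CPM in malonyl-CoA 4 to 579.5 CPM in control 3, with a log2 fold change of -0.14 (SE 0.30). It has short near-identical stretches in several other genes, such as 202 bases in Zmynd8, so some of its reads can be lost or split. The other 7 genes of these steps had log2 fold changes between -0.049 and 0.032. They were Hsd17b7 at -0.049, Tm7sf2 at -0.030, Sc5d at -0.0090, Nsdhl at -0.0084, Ebp at 0.014, Cyp51 at 0.020 and Dhcr7 at 0.032. Cyp51 demethylates lanosterol at C14, Tm7sf2 is the other C14 reductase, Nsdhl and Hsd17b7 complete the removal of the C4 methyl groups, Ebp shifts a double bond, Sc5d introduces one and Dhcr7 reduces one. Their standard errors ran from 0.19 to 0.28, so differences of that size were within the spread between libraries. The estimates nearest 0 are not evidence that these genes were equal in the groups.

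In sterol sensing 2 of 4 genes were above 0 and 2 below, with a median log2 fold change of 0.099. Srebf2 (ENSMUSG00000022463, chr15:82147181-82205379), which encodes the transcription factor SREBP-2, was at 339.6, 391.5, 409 and 291 CPM in controls 1, 3, 4 and 5, and at 465, 481, 468 and 414 CPM with malonyl-CoA. The lowest malonyl-CoA library was just above the highest control. The means were 358 ± 53.5 and 457 ± 29.6 CPM, a log2 fold change of 0.35 (SE 0.13, edgeR adjusted p = 0.502). After correction for GC content and transcript length it was -0.067, so its direction depends on that correction. Scap (ENSMUSG00000032485, chr9:110333288-110384950), the escort of SREBP-2, was at 78.7, 76.4, 85.6 and 45.7 CPM in controls and at 85.4, 82.1, 84.2 and 76.9 CPM with malonyl-CoA. Control 5 was the single low library and the other 7 were close together. Its log2 fold change of 0.20 (SE 0.18, edgeR adjusted p = 0.631) became -0.26 after the correction, and 985 of its exonic bases overlap a gene model on the opposite strand.

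Insig1 (ENSMUSG00000045294, chr5:28071363-28078662), a retention protein of SCAP and itself a well-known target of SREBP-2, was at 261, 290.4, 170.1 and 267 CPM in controls 1, 3, 4 and 5, and at 275, 270.2, 186 and 257 CPM with malonyl-CoA. The number 4 libraries were the low ones and the groups were almost superimposed, with means of 247 ± 52.9 and 247 ± 41.5 CPM. Between groups the log2 difference was -0.0012 (SE 0.19, edgeR adjusted p = 0.998), and it was above 0 under 16 of 23 other settings. Insig2, its less abundant relative, ranged from 15.3 to 34.5 CPM with a log2 fold change of -0.22 (SE 0.23).

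In trafficking and storage 1 of 4 genes was above 0 and 3 below, with a median log2 fold change of -0.098. Npc2 (ENSMUSG00000021242, chr12:84754562-84773152) binds cholesterol in the lysosome and had the highest level per length of all members. It was at 960.0, 924, 703 and 676 CPM in controls 1, 3, 4 and 5, and at 839, 812, 532 and 907 CPM with malonyl-CoA. Malonyl-CoA 4 was the lowest library and control 1 the highest, and the groups overlapped broadly, with a log2 fold change of -0.079 (SE 0.19, edgeR adjusted p = 0.862). Soat1 (ENSMUSG00000026600, chr1:156424525-156474331), which esterifies cholesterol for storage in lipid droplets, was at 182.5, 178, 153 and 180.1 CPM in controls and at 161, 168, 141 and 170.2 CPM with malonyl-CoA. It varied least of all members, with a highest value 1.29 times the lowest, and the groups overlapped. Its log2 fold change was -0.12 (SE 0.11, by edgeR an adjusted p = 0.638). Npc1, the membrane partner of Npc2, differed by 0.071 on the log2 scale (SE 0.13) and Stard4, a cytosolic sterol carrier, by -0.14 (SE 0.16).

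The members varied together between libraries of the same group. Control 4 and malonyl-CoA 4 were the 2 lowest libraries in 17 of 27 members (63.0%), against 1828 of 12696 tested genes (14.4%). The median deviation of the members from their own mean over the 8 libraries was -0.31 log2 units in control 4 and -0.41 in malonyl-CoA 4, and between 0.044 and 0.19 in the other 6 libraries. Over all genes the same medians stayed between -0.0040 and 0.013. The members took 0.51% of gene counts in control 4 and 0.501% in malonyl-CoA 4, and 0.6% to 0.716% in the others. Summed CPM of the 19 genes of synthesis was 3049 and 3004 in these libraries, and 4249 to 4750 elsewhere. Each group held 1 library of this kind.

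**Figure D3:**
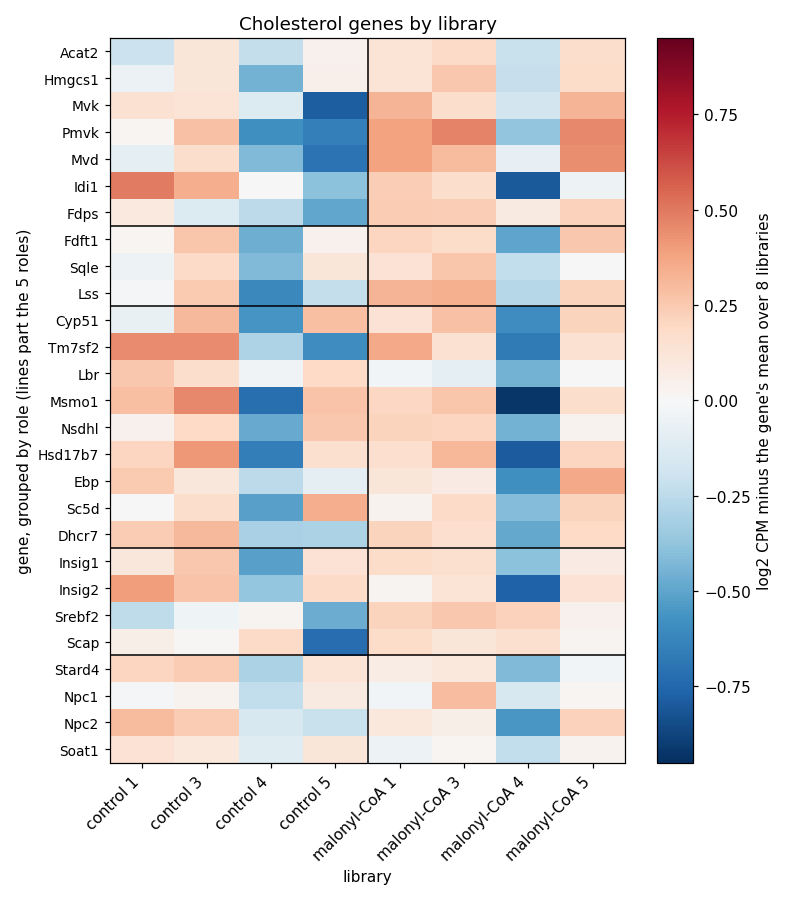
Deviation of log2 CPM from each gene's mean over 8 libraries (colour, red above and blue below) for the 27 genes (rows, in the order of the roles, parted by lines) and the 8 libraries (columns, controls left of the line). The columns of control 4 and malonyl-CoA 4 are blue for most genes, with median deviations of -0.31 and -0.41, and control 5 is below the mean for 12 genes, from Mvk at -0.78 to Ebp at -0.082.

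By role the low level in the number 4 libraries was deepest in the steps from lanosterol to cholesterol, with median deviations of -0.48 in control 4 and -0.58 in malonyl-CoA 4. In the squalene and lanosterol steps they were -0.46 and -0.27, in the mevalonate pathway -0.25 and -0.21, in trafficking and storage -0.19 and -0.33, and in sterol sensing -0.17 and -0.12. The 10 members that did not have these as their lowest pair were Mvk, Pmvk, Mvd, Idi1, Fdps, Tm7sf2, Lbr, Srebf2, Scap and Npc2. Srebf2, the regulator of these enzymes, was at 409 and 468 CPM in the number 4 libraries, the highest of the controls and the second highest of the malonyl-CoA libraries. Scap was likewise highest in control 4.

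The same libraries stood apart in other measures. Control 4 and malonyl-CoA 4 had the highest summed cell cycle genes, at 6291 and 6586 CPM against 5479 to 5900 CPM elsewhere, and the lowest summed monocyte and macrophage markers, at 3976 and 4566 CPM against 4748 to 6013 CPM. Medians over the genes of these lists gave another order: the median deviation of cell cycle genes was 0.042 in control 4 and -0.043 in malonyl-CoA 4, and up to 0.085 in malonyl-CoA 5. For monocyte markers it was -0.42 and -0.21, and -0.37 in control 1. The share of tallied reads in no gene was the highest in control 4 and malonyl-CoA 4, at 1.56% and 2.94%, against 1.11% to 1.49% in the others. Ly6a was at 26.3 and 29.0 CPM there and at 24.7 CPM in control 1, against 48.8 to 109.7 CPM in the other 5. The part of these measures in the shared variation was not tested. Without both libraries numbered 4, 16 of 27 members were above 0, the median log2 fold change was 0.049, and the smallest adjusted p was 0.216, for Srebf2 at 0.40.

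In control 5, 12 of 27 members were below their mean, against 48.9% of tested genes. Those with a GC content above 55% in their longest transcript (Mvk 56.3%, Pmvk 56.95%, Mvd 59.0%, Srebf2 57.9% and Scap 59.1%; the limit was set after their values were seen) had a median deviation of -0.70 log2 units there, against 0.10 for the other 22. Control 5 was the lowest of the 8 libraries for these 5 genes and for Fdps. Members of lower GC content were low there too: Tm7sf2 was at -0.59 (GC 50.96%), Fdps at -0.49 (50.6%), Idi1 at -0.39 (41.9%, the lowest GC of all members) and Dhcr7 at -0.30 (52.8%). Across 10288 genes with a mean log2 CPM above 2, the deviation in control 5 and GC content had a Spearman rho of -0.74. In malonyl-CoA 1 it was 0.52, and in the other 6 libraries between -0.10 and 0.25. These are correlations across genes of one library, given as a description. Corrected for GC content and length, the log2 fold changes of the 5 genes were 0.33 for Mvd, 0.35 for Pmvk, 0.15 for Mvk, -0.067 for Srebf2 and -0.26 for Scap. In the rest of the mevalonate pathway they were 0.32 for Fdps, 0.27 for Hmgcs1, 0.15 for Acat2 and -0.084 for Idi1. Over all members 14 of 27 were above 0, with a median of 0.00090. The median of all genes moved to -0.024.

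**Figure D4:**
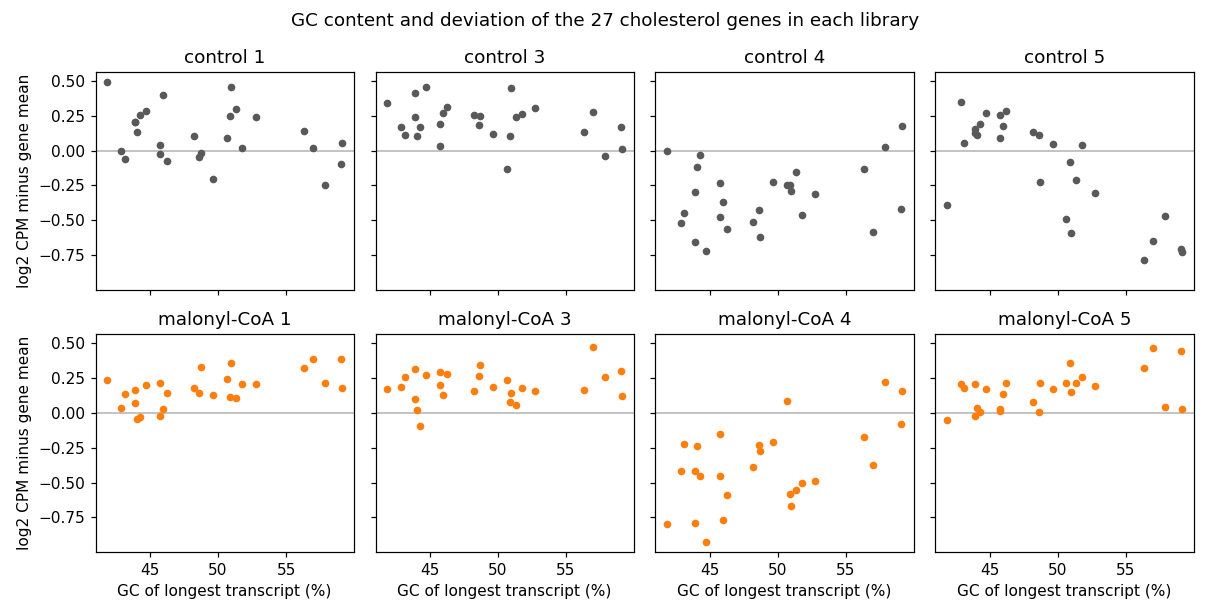
Deviation of log2 CPM from the gene's mean over 8 libraries (y axis) against the GC content of its longest transcript in percent (x axis) for the 27 genes, 1 panel per library. In control 5 the 5 genes above 55% GC have a median deviation of -0.70, with Tm7sf2 at -0.59, Fdps at -0.49 and Idi1 at -0.39 as low points at lower GC content, and in control 4 and malonyl-CoA 4 most of the other genes lie below 0.

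Levels between genes can be compared only per length, here as CPM per kilobase of exon. That length joins the exons of all annotated transcripts of a gene, for example 10787 bases for Lss and 11317 for Npc1. It can exceed the length of the transcripts in these cells, unequally between genes, so the order depends in part on the annotation. In controls the highest were Npc2 at 150.0 ± 27.01 CPM per kilobase, Hmgcs1 at 134.0 ± 21.8, Lbr at 134 ± 11.2 and Cyp51 at 125 ± 32.4, which did not differ beyond the spread between libraries. A step larger than 1 SD separated them from Insig1 at 79.9 ± 17.1, Msmo1 at 75.7 ± 23.2 and Stard4 at 69.3 ± 11.1. From Sqle at 56.3 ± 9.88 down to Dhcr7 at 38.5 ± 8.87 the neighbours in the order (Nsdhl, Acat2, Mvd, Srebf2, Fdft1, Ebp and Pmvk) differed by less than 1 SD. Sc5d was at 25.4 ± 6.06, and the remaining genes, from Lss at 17.9 ± 4.37 through Soat1, Mvk, Hsd17b7, Tm7sf2, Scap, Fdps, Insig2 and Idi1 to Npc1 at 6.38 ± 0.598, followed in small steps. With malonyl-CoA, Hmgcs1 was at 150.4 ± 20.6 and Npc2 at 142 ± 30.4, so the first places were exchanged within their spread.

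**Figure D5:**
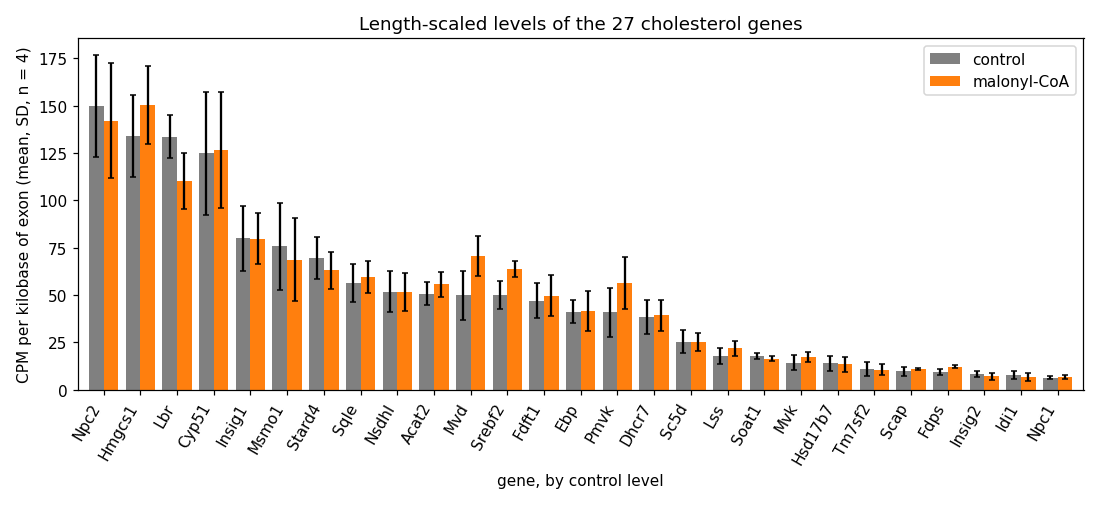
Level in CPM per kilobase of exon (y axis, from 0) of the 27 genes ordered by their control level (x axis), with grey bars for the control mean and orange bars for the malonyl-CoA mean and error bars for the SD (n = 4 each). Npc2, Hmgcs1, Lbr and Cyp51 stand above the rest at 125 to 150.0 in controls, and Npc1 is lowest at 6.38.

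Neighbouring pathways gave no gene past the test either, by edgeR adjusted over all genes. Of 6 genes of acetyl-CoA supply 5 were above 0, at a median of 0.25 (log2), and 2 were higher at an unadjusted p under 0.05, against 5.43% of all genes. Aacs, which activates acetoacetate for lipid synthesis, was at 178 ± 32.6 CPM in controls and 223 ± 11.1 CPM with malonyl-CoA, without overlap (3.21% of all genes), and Acly, which makes cytosolic acetyl-CoA, at 576.5 ± 51.4 and 708 ± 76.6 CPM. Of 16 further genes of sterol regulation 6 were above 0 and 10 below (median -0.099). Mbtps2, a protease that releases active SREBP, was at 58.5 ± 7.30 and 46.3 ± 2.65 CPM, and Srebf1, the sister gene of Srebf2, at 124 ± 36.4 and 167 ± 24.6 CPM. Of 17 genes of the isoprenoid branches 8 were above 0 and 9 below (median -0.056), among them Pdss2 of ubiquinone synthesis at 11.9 ± 1.37 and 9.48 ± 0.347 CPM, without overlap (2.93% of all genes), and the farnesyltransferase gene Fnta at 87.4 ± 8.88 and 74.1 ± 6.86 CPM. Control 5 was the lowest library for Aacs (131.5 CPM), Acly (503.5 CPM) and Srebf1 (72.0 CPM). It was the highest for Pdss2 (13.6 CPM) and Fnta (99.4 CPM), and neither for Mbtps2 (62.2 CPM). Values of these genes after correction for GC content are not given here.

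Of 28 further genes of cholesterol uptake, transport and efflux 25 were tested, with 16 above 0 and 9 below, a median of 0.066 (log2) and 3 higher at an unadjusted p under 0.05, against 5.43% of all genes. Lrp1, an endocytic receptor of lipoprotein remnants, was at 4.85, 7.21, 12.2 and 7.23 CPM in controls 1, 3, 4 and 5, and at 17.4, 18.8, 40.7 and 11.1 CPM with malonyl-CoA. Only control 4 exceeded the lowest malonyl-CoA library, and malonyl-CoA 4 was far the highest. Its log2 fold change was 1.48 (SE 0.41, by edgeR an adjusted p = 0.390), a larger estimate than that of any of the 27 members. Lrpap1, the chaperone of that receptor, was at 49.6 ± 9.30 and 65.5 ± 9.27 CPM, with a log2 fold change of 0.40 (SE 0.16). Lrp1 is also expressed by macrophages, and 12 of 17 monocyte and macrophage markers had fold changes above 0 (0 past the test), whose part in these values was not tested.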

How the data were processed

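Bulk RNA-seq of 4 control and 4 malonyl-CoA libraries was analysed. Raw counts per Ensembl gene were deposited by the authors, 1 file per library, with no normalization visible in the values. The submitters' processing notes name the tools cutadapt (1.8), STAR (2.5.2b) and HTSeq (0.6.1) and the genome build GRCm38. The kit was stranded per the labels' protocols, but whether counting used the strand, and from which annotation release, is not given in the sources used here. Counts of genes that overlap others are therefore uncertain, which touches 10 of the 27 members. Rows naming no gene (reads in no feature 1.11% to 2.94%, ambiguous 0.715% to 0.891%, not unique 38.2% to 51.1% of tallied reads) were left out. Symbols and coordinates came from GENCODE M21 (48349 of 48709 identifiers and all 27 members matched).

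Groups were taken from the sample titles. The test was edgeR 4.0.16 in R 4.3.3: filterByExpr (minimum count 10, total 15), TMM scaling, robust glmQLFit and a two-sided glmQLFTest without covariates, adjusted by Benjamini-Hochberg over 12696 genes. A standard error is the size of the log2 fold change divided by the root of the F statistic, and log2 CPM used a prior count of 2. Alternatives were RLE factors, library size only, no filter, 1 CPM in 4 libraries, DESeq2 1.42.0, limma-voom 3.58.1, a replicate block, a loess correction per library for GC content and length (span 0.5, genes above a mean log2 CPM of 2) alone and with the block, and each library or numbered pair left out. The edgeR legacy fit was added after seeing the data. The main edgeR fit, the replicate block, DESeq2, limma-voom and the GC and length correction were first run on simulated counts. These counts had the same spread setting for all genes, no GC bias and no effect shared by same-numbered libraries. They therefore could not check what the block and the correction remove. The other alternatives were not run on them. Members, gene lists, alternatives and the rule for genes with values in every library (the 8 smallest p, the highest level per length in each role, and Srebf2, Insig1 and Soat1) were chosen with earlier results of these data known. Of each neighbouring list the 2 genes with the smallest p were named.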

Additional observations from a re-analysis of the deposited data

Results flagged for a closer look

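In 7 of the 54 groups of 4 libraries (27 members in 2 groups), the lowest library lay farther from its nearest neighbour than Dixon's 95% critical value allows, where chance gives about 1 in 20. Members vary together, so these groups are not independent. Over all tested genes the same gap was met in 6.58% of control groups and 12.5% of malonyl-CoA groups. In 6 of the 7 the library was malonyl-CoA 4, which was set apart in this way as the lowest of its group in 2.25% of all genes and as the highest in 8.57%. Acat2 was at 116 CPM there against 146.5 to 152 CPM in the other 3 malonyl-CoA libraries. Pmvk was at 61.3 CPM against 104 to 110.4 CPM, and Fdft1 at 141.5 CPM against 227 to 239 CPM. Msmo1 was at 222 CPM against 475 to 508 CPM, Dhcr7 at 158 CPM against 247 to 256 CPM, and Insig2 at 15.3 CPM against 26.6 to 28.7 CPM. The seventh was Soat1 in control 4, at 153 CPM against 178 to 182.5 CPM in the other controls.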

How the results depend on the processing

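Under 23 alternatives 0 members passed the threshold, and 537 of 621 fold changes of members kept their direction. Insig2, Lbr, Mvd, Acat2, Stard4, Soat1, Pmvk, Lss, Mvk, Idi1, Fdps and Hmgcs1 kept 1 sign throughout, but leaving out 1 library moved several by over 1.5 times. With 1 library left out, the values nearest 0 were -0.034 for Idi1, -0.058 for Insig2, -0.043 for Stard4 and -0.069 for Soat1 without malonyl-CoA 4. Without control 4 they were 0.060 for Hmgcs1, 0.084 for Acat2 and 0.16 for Lss, and without control 5 0.12 for Mvk. Other alternatives came nearer 0 for some genes. Insig2 was at -0.037, Stard4 -0.020 and Soat1 -0.043 without both control 5 and malonyl-CoA 4. Acat2 was at 0.072 without both libraries numbered 1, and Mvk at 0.073 without both numbered 5. Lss was at 0.12 with the replicate block and the GC and length correction. Scap, which changed sign elsewhere, was at 0.034 without control 5. The count of members above 0 ran from 10 without control 4 to 22 without malonyl-CoA 4, and their median log2 fold change from -0.065 to 0.16 in these, with 0.17 without both control 5 and malonyl-CoA 4, where 20 were above 0. The other 15 changed sign as follows, and the cause was not tested. With GC and length correction Fdft1 was at -0.022, Srebf2 -0.067, Npc1 -0.014, Scap -0.26, Dhcr7 -0.15, Hsd17b7 0.031, Nsdhl 0.095, Sc5d 0.10 and Insig1 0.036. The same-numbered libraries correlated at 0.435, 0.428, 0.754 and 0.0523 for numbers 1, 3, 4 and 5. For numbers 1, 3 and 4 each library correlated best with its own number in the other group. Control 5 and malonyl-CoA 5 correlated best with other numbers. The labels do not say that the numbers pair the samples, so the block is given as an alternative only, and pairing is not excluded. With the replicate block 0 members passed, 5 were higher and 1 lower at an unadjusted p under 0.05 (18.5% and 3.7%, against 15% and 10.5% of all genes), the median was 0.022, the smallest adjusted p was 0.0687 (Srebf2), and 144 genes were called higher and 28 lower. Under the block Ebp was at -0.013, Sc5d 0.0048 and Insig1 0.010. With the block and the GC and length correction the median was -0.013, Fdft1 was at -0.031, Srebf2 -0.083, Npc1 -0.032, Ebp -0.013, Scap -0.27, Dhcr7 -0.16, Hsd17b7 0.019, Nsdhl 0.093, Sc5d 0.10 and Insig1 0.044. Library size only moved the median of all genes from 0.023 to 0.065 and gave Tm7sf2 0.0088, Nsdhl 0.036, Sc5d 0.034 and Insig1 0.043. Insig1 was at 0.0024 with RLE factors, 0.0015 with no filter, 0.00010 with 1 CPM in 4 libraries, 0.0033 with DESeq2 and 0.010 with limma-voom, where Ebp was at -0.015 and Sc5d at 0.0041. Without both libraries numbered 1 Cyp51 was at -0.045, without both numbered 3 Npc1 was at -0.0025, Tm7sf2 0.084 and Insig1 0.040, and without both numbered 4 Tm7sf2 was at 0.031. Without both numbered 5 Ebp was at -0.14, Nsdhl 0.079, Sc5d 0.053, Insig1 0.024 and Dhcr7 -0.11. Without control 5 and malonyl-CoA 4 Hsd17b7 was at 0.17, Nsdhl 0.20, Msmo1 0.12, Sc5d 0.24 and Insig1 0.15. Leaving out 1 library at a time gave ranges of -0.13 to 0.18 for Cyp51, -0.061 to 0.16 for Dhcr7, -0.11 to 0.16 for Ebp, -0.047 to 0.22 for Fdft1, -0.23 to 0.14 for Hsd17b7, -0.14 to 0.11 for Insig1, -0.34 to 0.065 for Msmo1, -0.023 to 0.12 for Npc1, -0.17 to 0.053 for Npc2, -0.14 to 0.11 for Nsdhl, -0.15 to 0.11 for Sc5d, -0.029 to 0.16 for Sqle and -0.20 to 0.14 for Tm7sf2. The lowest count of any member in a library was 315, for Idi1 in malonyl-CoA 4, and counting error is largest there.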

Other observations

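Ratios within a library, per kilobase of exon, do not depend on library size, but their size depends on the annotated exon lengths. Lbr exceeded Tm7sf2, the other sterol C14 reductase, 9.75 to 20.3 times in controls and 9.06 to 13.8 times with malonyl-CoA, and Tm7sf2 shares 532 exonic bases with Vps51 on the same strand, which leaves its count uncertain. Insig1 exceeded Insig2 9.6 ± 0.815 times in controls and 11.5 ± 1.58 times with malonyl-CoA (SD, n = 4). Srebf2 over Insig1 was 1.04 in control 4 and 1.08 in malonyl-CoA 4, and 0.469 to 0.766 in the other 6 libraries. Cyp51 over Srebf2 was 1.45 and 1.25 in the same 2 libraries and 2.08 to 3.68 elsewhere. These ratios were chosen after the values were seen and were not tested.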
